A study of Homo sapiens with 4 samples.

Results

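The genes described here are 32 genes of the integrated stress response and of amino acid supply, chosen by symbol among the 37468 features of the deposited tables, and all 32 were found. They comprise 5 transcription factors, 7 feedback and stress effectors, 8 enzymes of amino acid and one-carbon metabolism, 3 subunits of amino acid transporters and 9 cytosolic tRNA ligases. They were measured in 4 single-cell RNA libraries of MSTO-211H, an established mesothelioma line that the labels give as wild type. It was grown in serum-free suspension culture with growth factors, and the study calls the cells mesothelioma-initiating. The library named Control received neither QTP nor radiation (the design text names a vehicle control), Radiation received 4 Gy, Drug received 10 µM QTP and Drug_Radiation received 10 µM QTP followed by 4 Gy on the next day. All were collected 48 h after the time of irradiation. QTP is known here only by that abbreviation, and the study's title places it under dopamine receptor inhibition. Each group is 1 library of cells pooled at collection from 1 line, so no value below has a replicate error, no test between groups was made, and intervals at 95% cover counting error only.

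In the integrated stress response, kinases that sense amino acid shortage, misfolded protein, haem shortage or double-stranded RNA phosphorylate the initiation factor eIF2. General protein synthesis falls, while translation of the mRNA of ATF4, a transcription factor, is favoured. ATF4, usually paired with a C/EBP protein, binds short composite elements beside genes that make, import and charge amino acids, and its targets PPP1R15A and TRIB3 restrain the pathway. These are mRNA counts, and much of the regulation of ATF4 itself lies in translation, which they do not show.

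The core of the composite element was searched as TGATGNAA on both strands in the RefSeq promoter windows (GRCh38.p14, 250 bases before to 50 after a gene start), because it is the sequence through which the pathway is known to reach its targets. Of the 32 genes, 28 had at least 1 window (42 windows between them), and 11 of these genes held a match: AARS1, ASNS, ATF3, CEBPG, CHAC1, GARS1, IARS1, MARS1, NARS1, SLC3A2 and TARS1. Among all windows of RefSeq, 3.62% of 35116, and 4.46% of 27305 genes, held one. The genes were listed for their link to ATF4, so a high share is built into the list. The cyclic AMP response element TGACGTCA was in the window of 1 gene, PPP1R15A, against 2.25% of all genes. A match describes the letters in the window and is not evidence of binding. Of the genes at least 2-fold higher in more than 1 comparison below, SLC3A2 alone held the composite core, and its window (chr11:62881449-62881748, plus strand) is printed with the match, read on the plus strand, in capitals.
SLC3A2: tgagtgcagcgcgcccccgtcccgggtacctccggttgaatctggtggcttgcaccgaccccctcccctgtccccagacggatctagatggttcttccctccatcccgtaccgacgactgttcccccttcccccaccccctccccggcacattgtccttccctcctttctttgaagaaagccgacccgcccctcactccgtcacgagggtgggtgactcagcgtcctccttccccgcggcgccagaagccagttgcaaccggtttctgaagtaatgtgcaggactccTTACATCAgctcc

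Of the 9 tRNA ligases, 6 held the core. Their 24-base stretches are shown, on the strand of the match, because these genes share the core letters while their ratios below differ in sign (the choice of these lines was made after the values were seen).
AARS1: aacttggcTGATGCAActgcgaga
NARS1: acgctctcTGATGCAAcgccggaa
GARS1: tcggagcaTGATGAAAtcgccgcg
MARS1: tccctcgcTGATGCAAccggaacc
IARS1: cacggaggTGATGCAAcgcgctga
TARS1: ggaccagcTGATGCAAtcgaaagg
The capitals are the core. The AARS1 stretch lies at chr16:70289678-70289701, the NARS1 stretch at chr18:57621807-57621830 and the GARS1 stretch at chr7:30594837-30594860. The other 3 are at chr12:57488056-57488079 for MARS1, chr9:92293695-92293718 for IARS1 and chr5:33440959-33440982 for TARS1. In 5 of these 6 ligases the core reads TGATGCAA, and in GARS1 it reads TGATGAAA.

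The libraries differed in depth. Kept cells numbered 3183, 2425, 3802 and 6990 in Control, Radiation, Drug and Drug_Radiation, and their median UMIs (unique molecular identifiers, 1 per captured mRNA molecule) were 2318, 5299, 20405 and 18024.5. The median mitochondrial share ran from 3.18% in Control to 5.17% in Drug_Radiation. No barcode was shared by any pair of libraries. Levels are CPM, the UMIs of a gene summed over cells and scaled to the nuclear-encoded total of its library, and ratios are log2 of (CPM + 1), so they understate differences of genes at low CPM. Of the mesothelial markers, CALB2 had 27.6 to 49.2 CPM and MSLN 8.27 to 14.0, WT1 was under 2 CPM and UPK3B was at 0 or 0.233 at most. KRT5, LRRN4 and ITLN1, also mesothelial, were at 0.126 CPM or less. VIM, KRT8 and KRT18 were each at 1786 CPM or more in every library. The other mesenchymal markers, ZEB1, FN1, COL1A1 and TWIST1, had 6.48 to 16.7 CPM. Of the other epithelial markers, CDH1 had 1.26 to 2.57 CPM, and EPCAM and KRT19 were at 0.390 or less. PTPRC was at 0.335 CPM or less. CD68, on the haematopoietic list, had 16.2 CPM in Control and 39.3 to 41.4 in the other libraries, with LYZ at 0.0688 CPM or less.

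Summed over the 32 genes, the Control level was 1873 CPM (1844 to 1901) and the Radiation level 2787 (2760 to 2815). Drug had 3425 CPM (3413 to 3437) and Drug_Radiation 3012 (3003 to 3021), so Control was lowest and Drug highest. Gene by gene, 28 of the 32 reached 5 CPM in at least 1 library. CHAC1, ALDH1L2 and CTH stayed below 5 CPM throughout, and ASNS had 2 UMIs in Drug_Radiation and none elsewhere. Of the 28, Control was the lowest library for 22, against 57.1% of all 10483 genes that reached 5 CPM, and Drug the highest for 23, against 64.5% of them. AARS1 alone was highest in Control (7.36% of all genes) and none was highest in Radiation (5.83%). Radiation was lowest for 5, CEBPB, CEBPG, TRIB3, VLDLR and SLC7A11, against 30.5% of all genes. In cells of 6500 to 15000 UMIs, Control was lowest for 16 (41.5% of all genes) and Drug highest for 18 (50.1%). MTHFD2 and AARS1 were then highest in Control (18.6%) and PPP1R15A, SHMT2 and TARS1 in Radiation (17.3%).

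**Figure D1:**
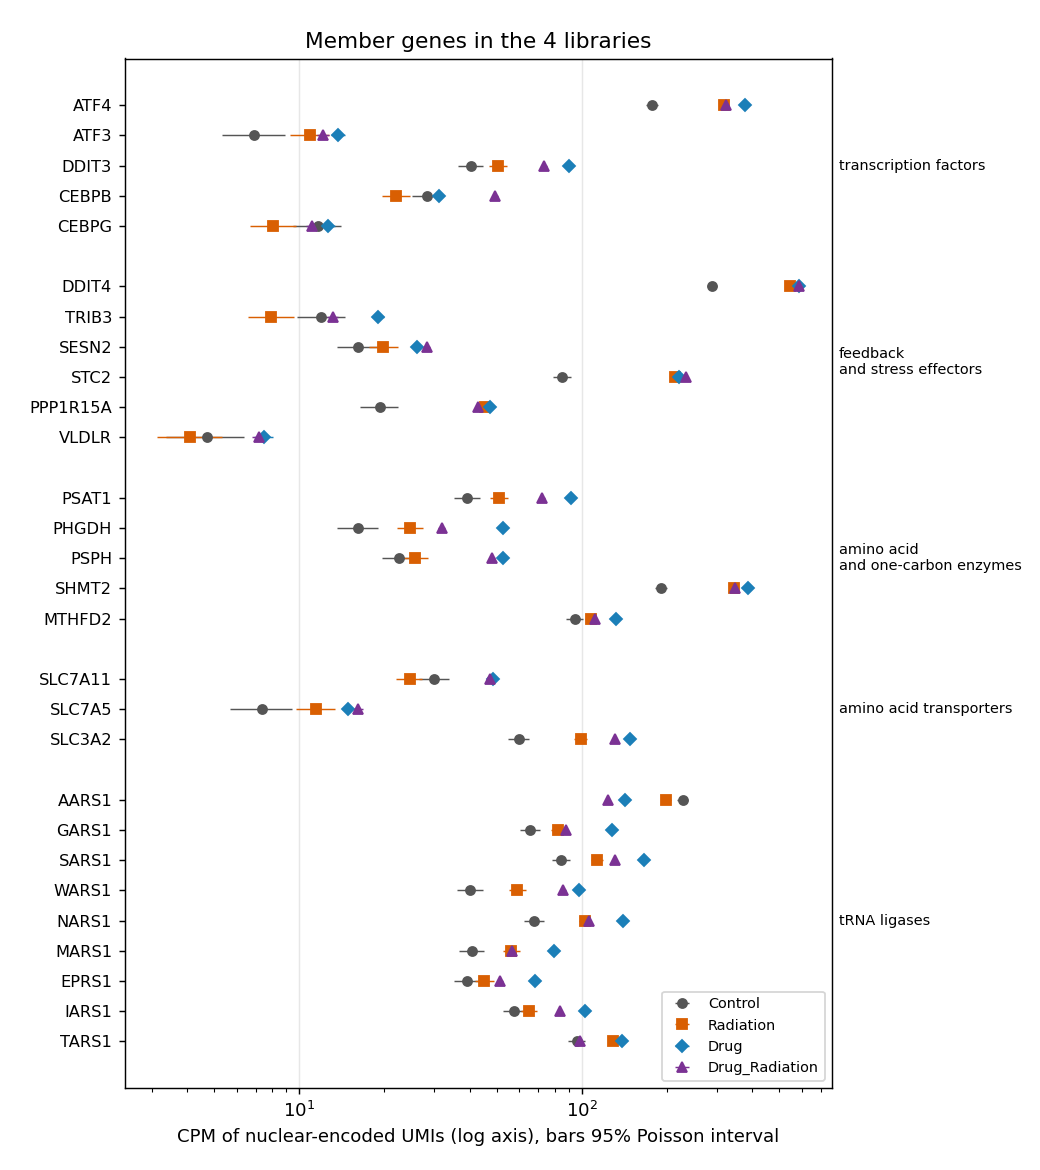
CPM (log axis) of each gene that reached 5 CPM, grouped by role, in the 4 libraries, with exact 95% Poisson intervals for counting error as bars. Most genes have Control at the left and Drug at the right, as for ATF4 with 178 and 377 CPM, and AARS1 has the opposite order with 228 in Control and 142 in Drug.

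QTP without radiation (Drug against Control) gave the highest ratios. Of the 23 genes with at least 20 CPM in either library, 12 were at least 2-fold higher, against 8.6% of all 5546 genes tested, and 0 were 2-fold lower, against 2.34%. The 12 were ATF4, DDIT3, DDIT4, STC2, PPP1R15A, PSAT1, PHGDH, PSPH, SHMT2, SLC3A2, WARS1 and NARS1. The median ratio was 0.95 over the 28 genes with 5 CPM in either library, against 0.47 over all genes. Many of these ratios stood close to the 2-fold size, so the count moved with the scaling: under TMM scaling, which brings the median of all genes to 0.08, only PHGDH remained 2-fold higher (background 1.22%) and AARS1 became 2-fold lower (background 3.46%). The median over the listed genes then stood at 0.56, still above that of all genes.

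QTP with radiation (Drug_Radiation against Radiation), in libraries that the first QTP comparison did not use, gave smaller ratios. Of 23 genes, 1 was at least 2-fold higher, CEBPB, against 1.15% of all genes, and none was 2-fold lower, against 1.6%. Under TMM scaling none passed 2-fold either way, against 0.725% and 1.77% of all genes. The median was 0.28, against 0.19 for all genes. Ratios higher than the all-gene median in both QTP comparisons were found for 12 of the 23 genes (52.2%, against 27.1% of 5112 genes): DDIT3, SESN2, STC2, PSAT1, PHGDH, PSPH, SLC7A11, SLC3A2, SARS1, WARS1, EPRS1 and IARS1. A further 8, ATF4 among them, lay above it only without radiation, against 1168 of the 5112 genes.

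Radiation without QTP (Radiation against Control) put 2 of 22 genes at least 2-fold higher, STC2 and PPP1R15A, against 2.18% of all genes, and none 2-fold lower, against 0.872%. The median was 0.42, against 0.12 for all genes. Radiation with QTP (Drug_Radiation against Drug) put none of 23 genes past 2-fold either way, against backgrounds of 0.269% higher and 0.126% lower, and the median was -0.19, against -0.14 for all genes. All-gene medians over genes with 20 CPM in either library were 0.182 without and -0.181 with QTP. In the 2 radiation comparisons, 4 of 22 genes exceeded that median each time, namely DDIT4, STC2, PPP1R15A and SHMT2 (18.2%, against 23.8% of 4715 genes). Against the medians given before, SHMT2 (-0.156 with QTP) would leave the set and PSPH (0.178 and -0.129) would join it. Another 13 were above the 20-CPM median only without QTP, against 1269 of the 4715 genes. These 2 comparisons share no library.

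The combination against Control (Drug_Radiation against Control, which shares libraries with the comparisons above) had 6 of 23 genes at least 2-fold higher, against 5.36% of all genes, and none lower, against 2.42%. They were DDIT4, STC2, PPP1R15A, PSPH, SLC3A2 and WARS1, and the median was 0.75, against 0.33 for all genes. Under TMM scaling STC2 alone was 2-fold higher (background 1.99%) and AARS1 2-fold lower (background 2.92%).

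**Figure D2:**
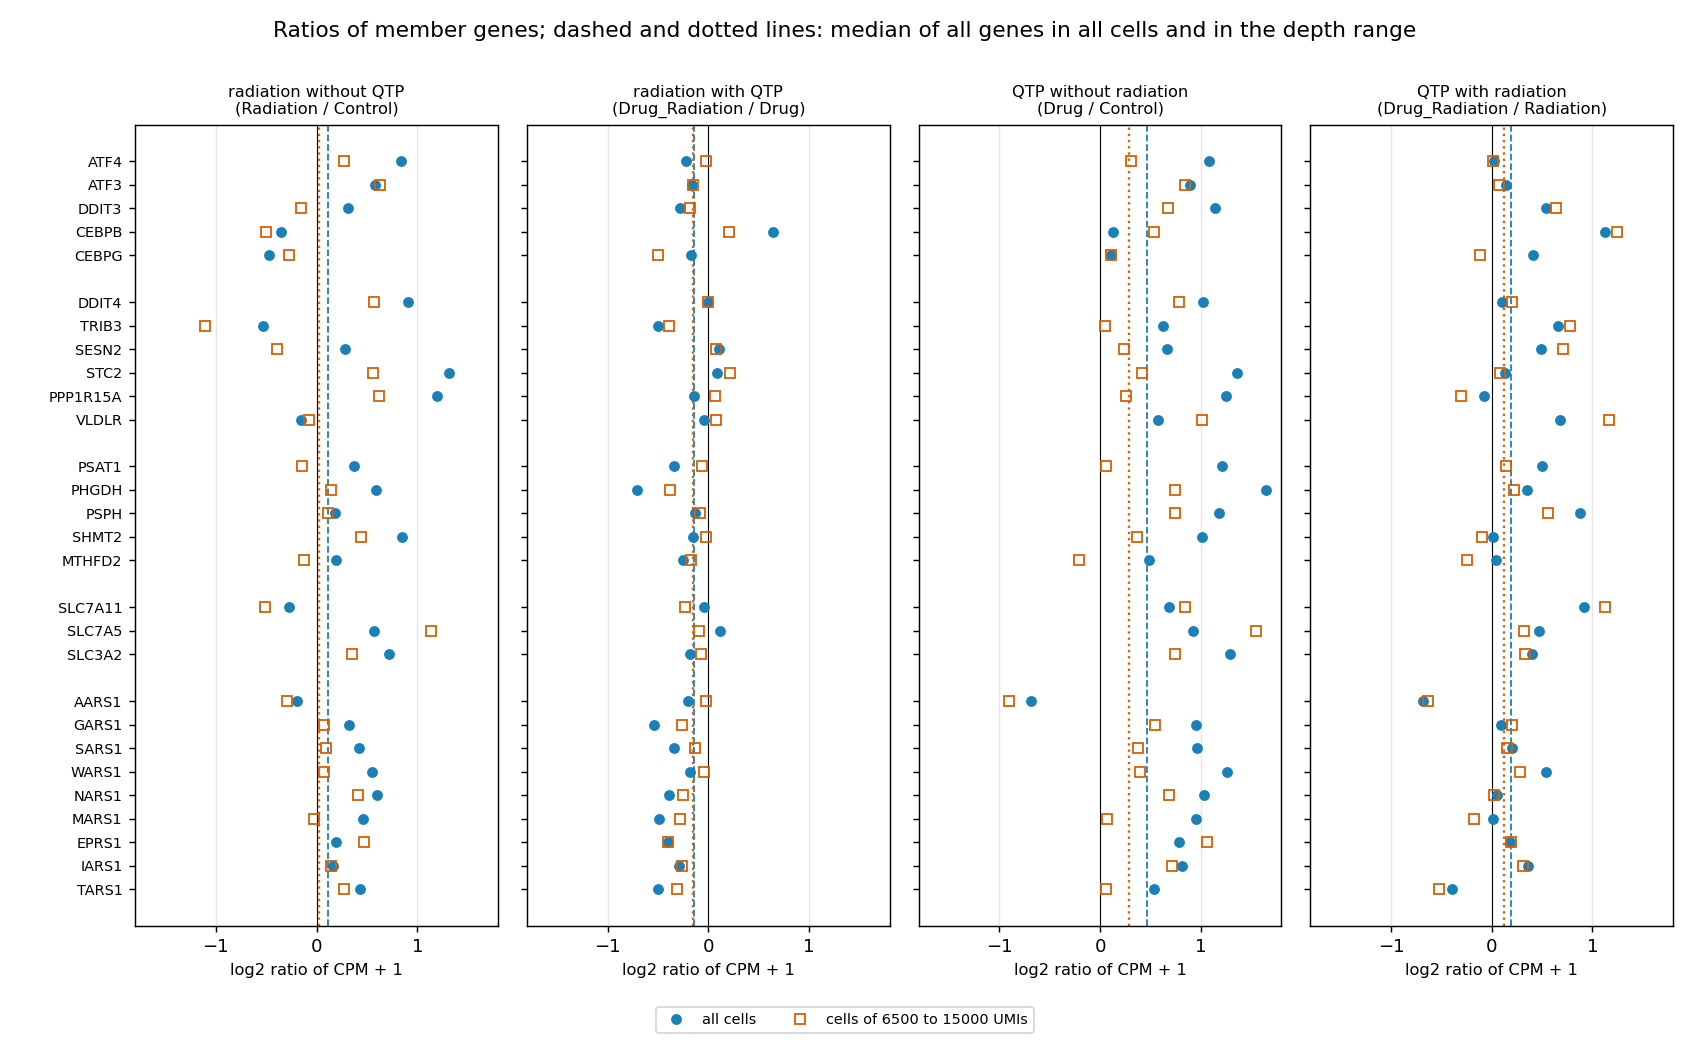
Log2 ratio of (CPM + 1) of each gene in the 4 pairwise comparisons, from all cells (filled circles) and from cells of 6500 to 15000 UMIs (open squares), with the median of all genes as a dashed and a dotted line. In Drug against Control the circles spread from -0.68 for AARS1 to 1.65 for PHGDH, and many squares lie nearer the line.

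Among the transcription factors, ATF4 (chr22:39519695-39522685, plus strand, positions here and below in GENCODE 29 on GRCh38) had 178 CPM in Control and 319, 377 and 323 in Radiation, Drug and Drug_Radiation. Both irradiated libraries thus stood within a few CPM of each other, and Control stood apart. Its log2 ratio was 1.08 (1.012 to 1.158) for QTP without radiation and 0.84 (0.76 to 0.93) for radiation without QTP. Between libraries that both had the other treatment, the ratio was 0.02 (-0.02 to 0.06) for QTP and -0.22 (-0.24 to -0.20) for radiation. DDIT3 (CHOP), a pro-apoptotic C/EBP-family factor downstream of ATF4, had 40.3, 50.4, 89.99 and 73.7 CPM in the same order of libraries. Its QTP ratios were 1.14 (1.005 to 1.314) without and 0.54 (0.44 to 0.66) with radiation, so both QTP libraries were above both libraries without QTP. DDIT3 overlaps MARS1 by 982 bases and MBD6 by 1028 bases on the other strand, and reads there cannot be told apart without the strand. It also shares 2769 bases on the same strand with AC022506.1, whose row had 1.56 to 2.47 CPM. How reads in those bases were assigned was not tested. CEBPB, a C/EBP factor that can pair with ATF4, followed a different order, with 28.4, 22.0, 31.2 and 49.2 CPM. Drug_Radiation was the highest library and Radiation the lowest, which gave CEBPB the highest ratio of the list for QTP with radiation, 1.13 (0.999 to 1.329), and for radiation with QTP, 0.64 (0.59 to 0.72). In cells of 6500 to 15000 UMIs the latter was 0.20 (0.05 to 0.36), below the 0.22 of STC2. Without the other treatment CEBPB had 0.13 (-0.05 to 0.33) for QTP, which became -0.26 under TMM scaling, and -0.35 (-0.61 to -0.12) for radiation. ATF3, a stress-induced transcription factor, had 6.93 to 13.7 CPM and CEBPG, another C/EBP partner of ATF4, had 8.09 to 12.6 CPM. Control was the lowest library for ATF3 and Radiation for CEBPG.

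Among the feedback and stress effectors, DDIT4 (REDD1), an inhibitor of the growth kinase mTORC1, had 288 CPM in Control and 543, 585 and 584 in Radiation, Drug and Drug_Radiation. The 3 treated libraries lay close together and Control apart, with ratios of 0.91 (0.85 to 0.98) for radiation alone and 1.02 (0.97 to 1.08) for QTP alone. STC2, a secreted glycoprotein of the stress response, also had Control apart, with larger ratios, at 85.2 CPM against 213, 220.2 and 234. Its highest library was Drug_Radiation, while that of DDIT4 was Drug. Its ratios were 1.31 (1.21 to 1.44) for radiation, 1.36 (1.27 to 1.48) for QTP and 1.44 (1.35 to 1.56) for the combination, each against Control. PPP1R15A (GADD34), the phosphatase subunit that reverses eIF2 phosphorylation, had 19.2 CPM in Control and 45.2, 47.2 and 42.8 in the treated libraries. For these 3 genes the ratios between libraries that both had the other treatment were smaller. STC2 had 0.13 (0.08 to 0.19) for QTP with radiation and 0.08 (0.06 to 0.11) for radiation with QTP, and DDIT4 had 0.10 (0.07 to 0.14) and -0.003 (-0.02 to 0.01). PPP1R15A had -0.08 (-0.20 to 0.04) and -0.14 (-0.20 to -0.08), the latter becoming 0.04 under TMM scaling. SESN2, a leucine sensor that restrains mTORC1, had 16.1 CPM in Control and 19.8, 26.1 and 28.2 in Radiation, Drug and Drug_Radiation, with both QTP libraries higher than both others. TRIB3, a pseudokinase that binds ATF4, had 12.0, 7.95, 19.0 and 13.1 CPM. For TRIB3 each irradiated library was below its unirradiated counterpart and each QTP library above its counterpart. VLDLR, a lipoprotein receptor induced by ATF4, stayed between 4.12 and 7.48 CPM and was higher in the QTP libraries. CHAC1, a glutathione-degrading enzyme, had 0.671 and 0.837 CPM in the libraries without QTP and 2.50 and 2.55 in those with QTP, at 6 UMIs in Control.

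In serine synthesis, PHGDH, which catalyses the first committed step, had 16.1 CPM in Control and 24.7, 52.7 and 31.8 in Radiation, Drug and Drug_Radiation. Drug stood above the other libraries, and PHGDH had both the highest ratio of the list for QTP alone, 1.65 (1.47 to 1.96), and the lowest for radiation with QTP, -0.71 (-0.79 to -0.67). PSAT1, the aminotransferase of the second step, had 39.1, 50.9, 91.7 and 72.5 CPM, with 1.21 (1.08 to 1.39) for QTP alone. PSPH, the phosphatase of the last step, had 22.6, 25.7, 52.5 and 48.0 CPM. For PSPH the QTP ratio was 1.18 (1.02 to 1.43) without radiation and 0.88 (0.75 to 1.06) with it, while radiation alone gave 0.18 (-0.07 to 0.44), an interval that includes 0. All 3 enzymes of serine synthesis were thus higher in both QTP libraries than in both libraries without QTP, but in cells of 6500 to 15000 UMIs PSAT1 had 0.06 (-0.26 to 0.39) for QTP alone and -0.008 (-0.31 to 0.31) for the combination. SHMT2, which passes a one-carbon unit from serine to folate in mitochondria, had a different pattern, at 191 CPM in Control and 346, 387 and 348 in Radiation, Drug and Drug_Radiation. Its ratios were 1.02 (0.95 to 1.09) for QTP alone, 0.85 (0.78 to 0.94) for radiation alone and 0.01 (-0.03 to 0.05) for QTP with radiation. MTHFD2, the next mitochondrial folate enzyme, ranged from 94.2 in Control to 132 in Drug. SHMT2 shares 33 bases with NDUFA4L2, which had 49.4 CPM in Control and 100.02 in Drug. CTH, which makes cysteine, ranged from 2.37 to 3.23 CPM, and ALDH1L2, a mitochondrial folate dehydrogenase, from 0.241 to 0.335 CPM, in both cases too low for a ratio to be read.

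ASNS, asparagine synthetase and a standard target of ATF4, could not be read from its own row. It had 0 UMIs in 3 libraries, which at 3 counts allows up to 0.335 CPM in Control, 0.209 in Radiation and 0.0344 in Drug. On the annotation, ASNS (chr7:97852118-97872542, minus strand) lies wholly within the processed transcript AC079781.5 (ENSG00000284707) on the same strand, with 20425 bases in common, and that row had 54.4, 57.6, 98.4 and 72.3 CPM in Control, Radiation, Drug and Drug_Radiation. Its log2 ratio was 0.84 (0.72 to 0.99) for QTP alone and 0.08 (-0.08 to 0.25) for radiation alone, and 0.32 (0.23 to 0.43) for QTP with radiation. How reads in the shared bases were assigned was not tested. The row was singled out after its values were seen.

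Of the transporter subunits, SLC3A2 (CD98 heavy chain), the chain that carries SLC7A5 and SLC7A11 to the membrane, had 59.9 CPM in Control and 99.0, 148 and 130.5 in Radiation, Drug and Drug_Radiation. Its ratios were 1.29 (1.18 to 1.43) for QTP alone, 0.72 (0.58 to 0.87) for radiation alone and 1.11 (0.999 to 1.250) for the combination. SLC7A11 (xCT), the cystine importer, had 30.0, 24.6, 48.6 and 47.2 CPM. The QTP libraries were above the others and Radiation was lowest, with QTP ratios of 0.68 (0.52 to 0.88) without and 0.92 (0.79 to 1.10) with radiation and -0.28 (-0.52 to -0.05) for radiation alone. An antisense gene, SLC7A11-AS1, overlaps SLC7A11 by 14081 bases and had 149 to 219.6 CPM, and the strand counted is not given in the sources used here. SLC7A5 (LAT1), the importer of large neutral amino acids, had 7.38, 11.4, 14.9 and 16.2 CPM, with Control lowest.

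The tRNA ligases, which load amino acids onto tRNAs, divided into AARS1 and the rest. AARS1 (alanine, chr16:70252295-70289543, minus strand) had 228 CPM in Control and 199, 142 and 123 in Radiation, Drug and Drug_Radiation. Its ratio was -0.68 (-0.75 to -0.62) for QTP without radiation, -0.68 (-0.75 to -0.63) with radiation and -0.88 (-0.95 to -0.82) for the combination, and -0.19 (-0.28 to -0.11) for radiation alone. AARS1 was the lowest of the list in all 3 comparisons of a QTP library with one without QTP, and remained so under TMM scaling, with -1.08, -0.82 and -1.09. WARS1 (tryptophan), which is also induced by interferon, had 40.1, 59.0, 97.8 and 86.0 CPM and the highest ligase ratio for QTP alone, 1.26 (1.13 to 1.44). NARS1 (asparagine) had 67.6, 103, 140 and 106 CPM, and GARS1 (glycine) had 65.4, 82.1, 128 and 87.8 CPM. GARS1 had the second lowest ratio of the list for radiation with QTP, -0.54 (-0.58 to -0.50). TARS1 (threonine) had 95.8 CPM in Control and 98.3 in Drug_Radiation, but 129 in Radiation and 139 in Drug. That gave TARS1 0.43 (0.31 to 0.55) for radiation alone and 0.53 (0.44 to 0.64) for QTP alone, but -0.39 (-0.46 to -0.32) for QTP with radiation. SARS1, MARS1, EPRS1 and IARS1 each had Control lowest and Drug highest.

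A further 10 cytosolic ligase genes, which were not on the list, were read beside the 9. Of the 18 ligases other than AARS1, 18 had a ratio above 0 for QTP alone, from 0.46 for VARS1 to 1.26 for WARS1 with a median of 0.95, and all 18 stayed above 0 under TMM scaling and in cells of 6500 to 15000 UMIs. The median of all genes was itself above 0, at 0.47 over all cells, 0.08 under TMM scaling and 0.29 in that depth range. VARS1 lay below it over all cells and in the depth range, where VARS1 had 0.008. How many of all genes lay above 0 was not counted. For QTP with radiation, 14 were above 0 and 4 below, the lowest being TARS1, and under TMM scaling 10 and 8. Over all cells the median of the 18 was 0.19, as was that of all genes. For radiation with QTP, 17 of the 18 were below 0 (16 under TMM scaling), with a median of -0.31 against -0.14 for all genes. For QTP alone AARS1 was therefore below 0, and the 18 above it, over all cells, under TMM scaling and in the depth range. The AARS1 window holds the same 8 letters, TGATGCAA, as those of NARS1, MARS1, IARS1 and TARS1, but at another place. From the start that defines the RefSeq window, the match begins at -187 in AARS1, -4 in MARS1, -13 in IARS1, 3 in TARS1 and 15 in NARS1. That start can differ from the gene start of GENCODE 29. The MARS1 window is chr12:57487818-57488117, while its gene there begins at 57475445. Any link between these matches and the ratios was not tested.

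**Figure D3:**
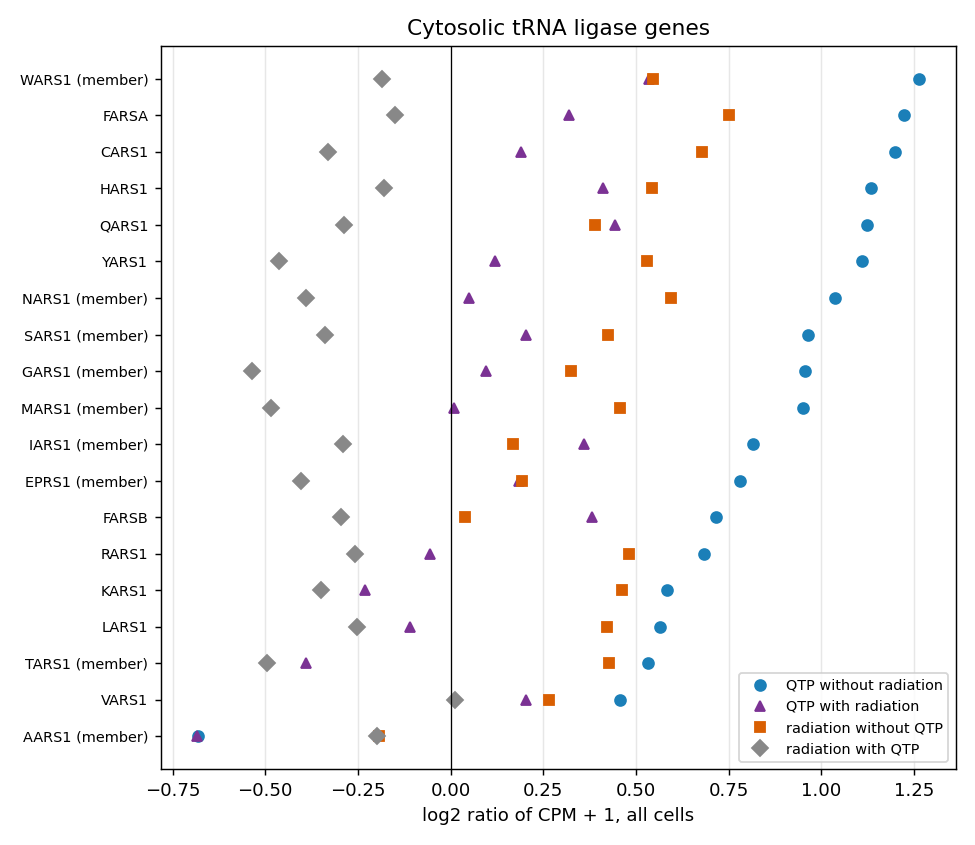
Log2 ratio of (CPM + 1) over all cells for 19 cytosolic tRNA ligase genes (9 of the list, marked as members, and 10 others) in 4 comparisons, ordered by Drug against Control. AARS1 is at -0.68 in both QTP comparisons, and the other 18 lie above 0 for QTP without radiation, where the median of all genes was 0.47.

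Of the 12 genes at least 2-fold higher for QTP alone, 10 had a promoter window and 2 of these held the composite core, SLC3A2 (whose sequence is given above) and NARS1. Over the whole list it was 11 of 28 genes with a window, and over all genes 4.46%. PSPH and SHMT2 are among the genes with no window in the RefSeq table.

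Cell depth moved with these levels, and the size of the differences depended on it. In Control, the summed level of the 32 genes was 1404 CPM in cells of 1000 to 2000 UMIs (1249 cells), 1807 at 2000 to 4000, 2027 at 4000 to 6500 and 2315 at 6500 to 10000 (148 cells). In Radiation the level was nearly flat over 6 depth bands, between 2743 and 2841 CPM. In Drug it was 2965 CPM at 6500 to 10000 UMIs and 3631 above 30000, and in Drug_Radiation it lay between 2725 and 3051. In the band of 6500 to 10000 UMIs, which all 4 libraries have, Control was still lowest at 2315 (2226 to 2406), followed by Radiation at 2743 (2693 to 2795), Drug_Radiation at 2895 (2853 to 2937) and Drug at 2965 (2906 to 3024). The last 2 intervals overlap. The band of 10000 to 15000 UMIs, also present in all 4 libraries, had the same order, with 25 cells in Control. There Control had 2497 CPM (2315 to 2688) and Radiation 2787 (2725 to 2850). Drug_Radiation had 2922 (2898 to 2945) and Drug 3123 (3082 to 3164), and these intervals do not overlap. AARS1 had 214 to 242 CPM over the Control bands, 167 to 259 over those of Radiation, and 119 to 158 over those of Drug and Drug_Radiation.

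**Figure D4:**
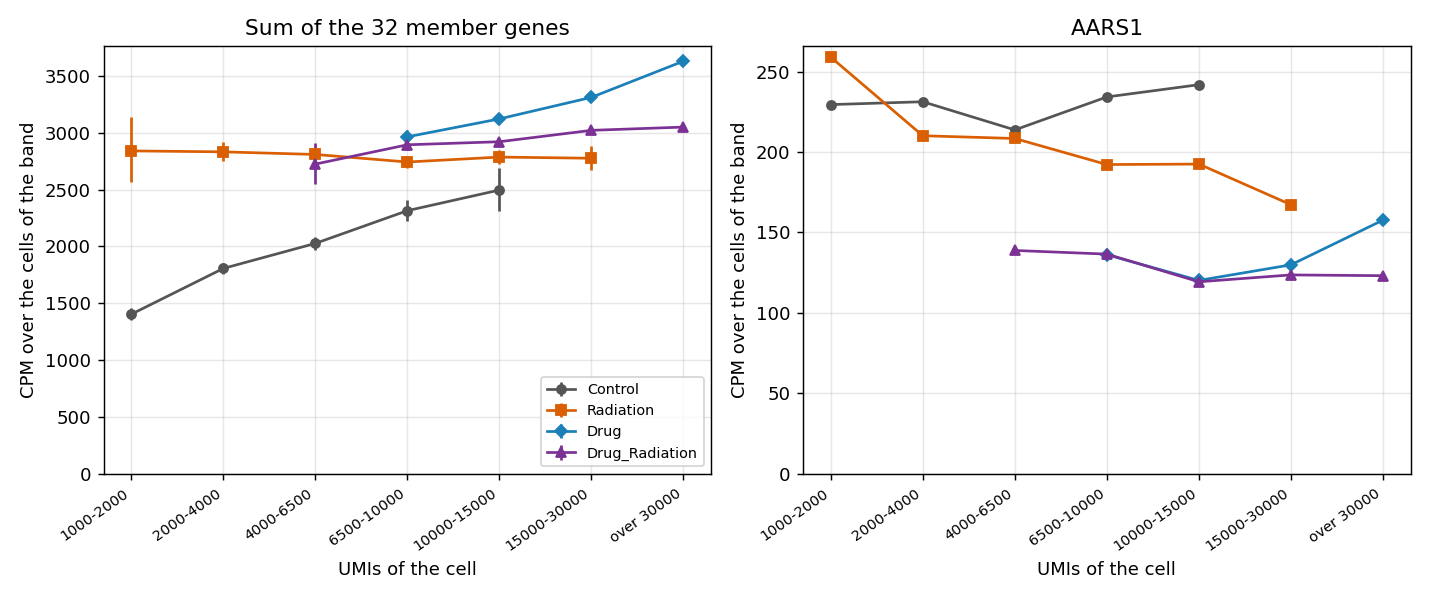
Level over the cells of each depth band (UMIs per cell) for the sum of the 32 genes (left, with 95% Poisson intervals) and for AARS1 (right, no intervals drawn), one line per library. The Control line of the sum climbs from 1404 to 2497 CPM, and for AARS1 the Control and Radiation lines stay above 167 CPM while the QTP lines stay below 158.

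Cells of 6500 to 15000 UMIs were compared on their own, 173 of 3183 in Control, 770 of 2425 in Radiation, 1023 of 3802 in Drug and 2533 of 6990 in Drug_Radiation. These are the deepest cells of Control and the shallowest of the QTP libraries, and their median UMIs still ran from 7775 to 11462. For QTP alone the median ratio of the listed genes was then 0.48, against 0.29 for all genes, and 1 gene was 2-fold higher (EPRS1, 1.06, against 8.08% of all genes) and none lower (2.26%). For radiation alone the median was 0.11, against 0.02, and none was 2-fold higher (background 0.844%). In the combination none was 2-fold higher (background 4.09%) or lower (2.77%). The genes differed in how they responded to the restriction. ATF4 for QTP alone was 0.31 (0.15 to 0.47), which is close to the median of all genes. STC2 had 0.42 (0.20 to 0.65), PPP1R15A 0.26 (-0.20 to 0.76) and WARS1 0.39 (0.07 to 0.75). DDIT4 had 0.78 (0.65 to 0.92), PHGDH 0.75 (0.25 to 1.34), PSPH 0.74 (0.28 to 1.29) and SLC3A2 0.75 (0.47 to 1.06), each further above the median of all genes, although the intervals of PHGDH and PSPH reach below it.

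AARS1 was as low in that range, at -0.91 (-1.09 to -0.73) for QTP alone and -0.64 (-0.73 to -0.55) for QTP with radiation. The ratios for QTP with radiation, between the libraries of 5299 and 18024.5 median UMIs, also changed little for CEBPB, at 1.24 (1.03 to 1.54), and DDIT3, at 0.64 (0.48 to 0.83). SLC7A11 rose from 0.92 over all cells to 1.12 (0.93 to 1.39). CEBPB and SLC7A11 were the 2 genes of the list that were 2-fold higher there, against 2.6% of all genes. TARS1 had -0.53 (-0.64 to -0.42). For radiation alone, STC2 had 0.56 (0.34 to 0.79), PPP1R15A 0.62 (0.17 to 1.14), DDIT4 0.57 (0.44 to 0.72) and SHMT2 0.44 (0.28 to 0.61), all with intervals above the 0.02 of all genes. Ratios changed sign in the range for DDIT3, SESN2, PSAT1, MTHFD2 and MARS1 under radiation alone and for DDIT4, PPP1R15A, VLDLR and SLC7A5 under radiation with QTP. They did so for MTHFD2 under QTP alone, for CEBPG, SHMT2, MTHFD2 and MARS1 under QTP with radiation, and for TRIB3, PSAT1, MTHFD2, MARS1 and TARS1 in the combination.

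Within libraries, UMIs of the listed genes were found in many cells. Free RNA in the partitions was not estimated, and no cell type that should lack these genes was at hand to set a background, so shares of cells with a UMI are not read as shares of expressing cells. Their median share of a cell's UMIs was 0.152% in Control and 0.253%, 0.297% and 0.272% in Radiation, Drug and Drug_Radiation, and in cells of 6500 to 15000 UMIs 0.208%, 0.255%, 0.281% and 0.265%. With each cell thinned to 1000 UMIs, cells carried 1.63, 2.64, 3.17 and 2.79 UMIs of the 32 genes on average, and 23.3%, 10.4%, 7.42% and 9.73% of cells carried none. The variance over the mean of these thinned counts was 1.297 in Control and 1.48, 1.65 and 1.42 in Radiation, Drug and Drug_Radiation, so cells varied by more than the counting of UMIs (a value of 1) in each library. ATF4 was found in 13.8% (12.6 to 15.01) of thinned Control cells and in 24.3%, 28.0% and 24.2% of those of Radiation, Drug and Drug_Radiation, against 32.1%, 72.9%, 95.6% and 95.4% before thinning. AARS1 was found in 20.04% (18.7 to 21.5), 17.2%, 11.9% and 10.96% after thinning, while its unthinned shares were 43.6%, 63.3%, 82.8% and 80.5%. The intervals are exact Clopper-Pearson intervals.

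**Figure D5:**
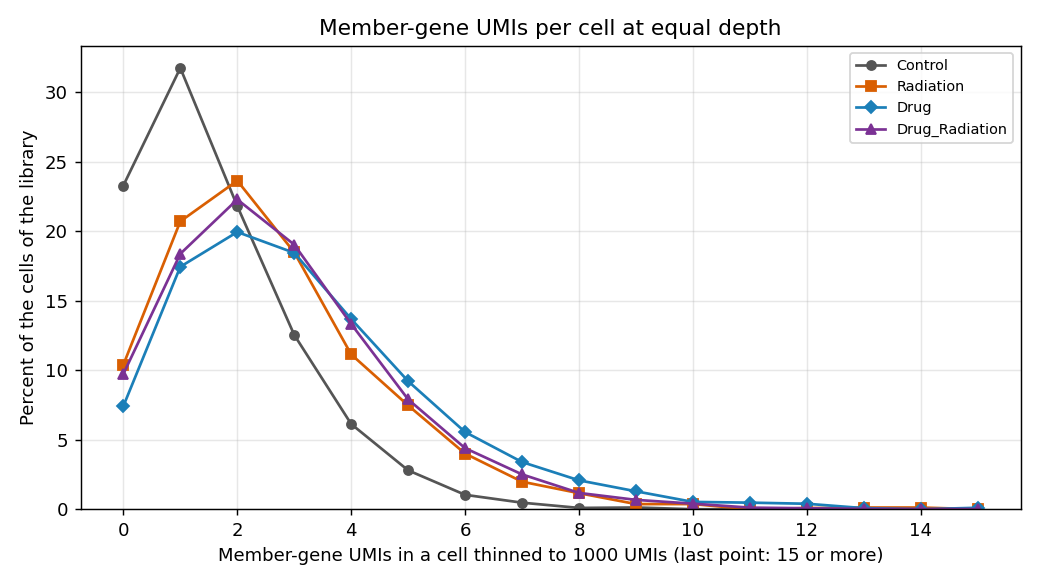
Percent of the cells of each library (vertical axis) by the number of UMIs of the 32 genes in a cell thinned to 1000 UMIs (horizontal axis). The Control curve peaks at 1 UMI and the others at 2, with 23.3% of Control cells and 7.42% of Drug cells at 0.

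Across cells of the QTP libraries thinned to 6000 UMIs, each gene was set beside the sum of the other listed genes. All 27 genes tested in Drug and 28 in Drug_Radiation had a positive Pearson correlation, with medians of 0.21 and 0.16. Among other nuclear-encoded genes of at least 1000 UMIs, not matched for level and taken from a separate thinning to about 6000 UMIs, 76.4% of 7520 and 75.4% of 8952 correlated positively with the sum of the 32 genes, with medians of 0.03 and 0.02. ATF4 had the highest, 0.40 and 0.32, followed by genes such as STC2 at 0.36 and 0.29 and PSAT1 at 0.36 and 0.29, and PSPH had the lowest, 0.06 and 0.04. The points are cells of 1 library that share its preparation, and cell size or cycle phase was not separated from the relation.

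Genes around the list were described by the same counts. Of the 17 genes of the eIF2 kinases and eIF2 machinery, upstream of ATF4, 11 or 12 had 20 CPM in a comparison. None of these passed 2-fold in any comparison (8.6% of all genes did upward for QTP alone), and their median lay at that of all genes for QTP alone (0.47 and 0.47) and near it for radiation alone (0.14 and 0.12). Of 27 further ATF4 targets, 17 had 20 CPM for QTP alone, with 3 at least 2-fold higher (PYCR1, CARS1 and GDF15) and 1 lower (KLHL24), beside 8.6% and 2.34% of all genes. CARS1 is also among the 10 further cytosolic ligases described above, so those lists share it. PYCR1, an enzyme of proline synthesis, had 1.21 (1.09 to 1.37) and KLHL24 -2.41 (-2.61 to -2.36). CBS, an enzyme of cysteine synthesis that did not reach 20 CPM, had 1.53 (1.26 to 2.42) from 3.02 and 10.6 CPM. KLHL24 had 90.6 CPM in Control and 39.4, 16.2 and 18.1 in Radiation, Drug and Drug_Radiation. GDF15, a stress-induced cytokine, had 128, 266, 268 and 389 CPM in the same order, with 1.60 (1.52 to 1.69) for the combination. GDF15 was also higher between libraries that both had the other treatment, at 0.53 (0.51 to 0.56) for radiation with QTP and 0.54 (0.50 to 0.59) for QTP with radiation. Of 15 targets of ATF6 and XBP1, the other branches of the unfolded protein response, 1 of 11 was 2-fold higher for QTP alone, the chaperone DNAJB9 at 1.09 (0.86 to 1.48), a share near the 8.6% of all genes, and the median was 0.50 against 0.47. Of the 12 other amino acid transporters and the 17 mitochondrial tRNA ligases, 5 each had 20 CPM in that comparison, and none of these passed 2-fold, beside the same 8.6% and 2.34% of all genes.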

How the data were processed

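The authors deposited unnormalized UMI counts, as whole numbers for each gene in each barcode. The build hg38 and the package Seurat (version 4.3.3) are named in the submitters' processing notes without a role. For alignment, counting, strand and annotation neither tools nor settings were given in the sources used here, nor how barcodes were called. The labels name a PIPseq V T2 3-prime kit in one text and another platform in a second, so the kit is not settled. The barcode lists deposited by the authors and the feature lists, which pair Ensembl identifiers and symbols, were used as they are. Barcodes had been filtered before deposit, since the lowest total was 1009 UMIs in Control and 6427 in Drug.

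Cells with at least 500 UMIs, 300 genes and under 20% mitochondrial UMIs were kept (3183 of 3184, 2425 of 2428, 3802 of 3806 and 6990 of 7006). No doublet caller was used. UMIs were summed per library over all kept cells (9249567, 14859709, 90903552 and 149368293 UMIs in Control, Radiation, Drug and Drug_Radiation) and scaled to the nuclear-encoded total as CPM, with exact Poisson intervals. Log2 ratios took CPM plus 1, with exact conditional binomial intervals that leave out the added 1 CPM, so for low genes they are not centred on the ratio. Genes with 20 CPM in either library were counted past a fixed 2-fold, and medians used genes with 5 CPM. The counts of genes above the all-gene median in both QTP or both radiation comparisons used medians over genes with 20 CPM instead. With 1 library per group no test was made. Alternatives used TMM (edgeR 4.0.16), median-of-ratios size factors (DESeq2 1.42.0), other cell filters, equal weight per cell, cells of 6500 to 15000 UMIs, an added 0.1 CPM and no filter on low values. Depth bands and promoter stretches were chosen after the data were seen. Positions come from GENCODE 29 and promoters from RefSeq. The scripts were tested on simulated counts.

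The listed genes, their role groups and the other gene lists were chosen with earlier results of these data known. Named in full were the 4 highest and 2 lowest listed genes per comparison with at least 20 CPM and the gene of highest Control level in each role group. Of the other lists, apart from the markers, the rule was to name at most the 2 highest and the lowest per comparison. For QTP alone more of the further ATF4 targets were named, namely PYCR1, CARS1, GDF15 and CBS beside KLHL24. Other genes were named after their values were seen. 1 cytosolic ligase gene is not reported here.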

Additional observations from a re-analysis of the deposited data

Results flagged for a closer look

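For 4 genes of the list, the radiation ratio was above 0 without QTP and below 0 with QTP, and the log2 ratios differed by more than 1. The median of all genes also went from 0.12 without QTP to -0.14 with QTP, and how many of all genes met this rule was not counted. The difference (with QTP minus without) was -1.06 for ATF4 (0.84 without, -0.22 with), -1.33 for PPP1R15A (1.19 and -0.14), -1.30 for PHGDH (0.59 and -0.71) and -1.01 for SHMT2 (0.85 and -0.16). Each ratio rests on 1 library per group, so the difference was not tested. By arithmetic it equals the difference between the QTP ratios with and without radiation, and it holds the Control library, whose cells had the lowest depth. In cells of 6500 to 15000 UMIs it was -0.30, -0.56, -0.52 and -0.47 in the same order. The radiation ratio with QTP was then -0.03 (-0.09 to 0.03) for ATF4, 0.06 (-0.11 to 0.24) for PPP1R15A and -0.03 (-0.08 to 0.03) for SHMT2. These intervals include 0, while PHGDH had -0.38 (-0.57 to -0.22). Under TMM scaling the radiation ratio with QTP was above 0 for PPP1R15A (0.04) and SHMT2 (0.02), and it stayed below 0 for ATF4 (-0.04) and PHGDH (-0.53).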

How the results depend on the processing

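With 1 library per group there is no replicate spread, and leaving out a replicate was not possible. No paired analysis was possible because each group is 1 library. Of 168 alternative values for 24 results, 129 kept their direction and their size within the limits used, 38 moved and 1 reversed. Adding the UMIs of named copies gave no value, since the files name no copy of a listed gene. For radiation without QTP, 5 genes were 2-fold higher with equal weight per cell and 0 in cells of 6500 to 15000 UMIs, where the median was 0.11. For radiation with QTP the median was -0.013 under TMM, -0.042 under median-of-ratios scaling and -0.11 in that depth range, and the difference from all genes reversed there, to 0.036 from -0.050. For QTP without radiation, 1 gene was 2-fold higher under TMM, under median-of-ratios scaling and in the depth range, 1 was lower under both scalings, and the median was 0.56, 0.54 and 0.48. For QTP with radiation, 0 genes were 2-fold higher under both scalings and 2 with equal weight per cell and in the depth range, with medians of 0.15 and 0.081 under TMM and median-of-ratios scaling. For the combination, 1 gene was 2-fold higher and 1 lower under both scalings, 11 were higher with equal weight per cell and 0 in the depth range, and the median was 0.49 under median-of-ratios scaling and 0.36 in the depth range. The share of all genes past 2-fold was not counted with equal weight per cell or under median-of-ratios scaling. The counts of listed genes at those settings therefore have no background and cannot be set against all genes. The median share of a cell's UMIs was 0.1% in Control and 0.2% in Radiation and Drug_Radiation when thinned to 1000 UMIs, where 1 UMI is 0.1%. In the depth range it was 0.208% in Control, 0.281% in Drug and 0.265% in Drug_Radiation. The cause of these shifts was not tested.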
